A study of Mus musculus with 18 samples.

Results

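Glycolysis breaks glucose down to pyruvate in the cytosol. When oxygen is short, cells rely on it more and turn pyruvate into lactate. The transcription factor HIF-1, whose regulated subunit is Hif1a, then raises the transcription of most glycolytic enzymes, of glucose and lactate transporters and of a set of genes outside glycolysis. In the colon the epithelium lies along a gradient of oxygen, and colorectal tumours are known for high glycolysis and for poorly oxygenated zones.

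The glycolysis and hypoxia genes examined here are a list of 39 genes given by symbol: 3 transporters, 10 genes of the preparatory phase of glycolysis, 8 of the payoff phase, 3 pyruvate dehydrogenase kinases, 3 oxygen-sensing genes and 12 other hypoxia targets. Rows were taken wherever the gene symbol matched, which gave 40 of the 54354 rows of a mouse count table. The extra row, a second entry for Aldoa, held 0 counts in the 10 libraries used. All libraries are poly(A)-selected, strand-specific bulk RNA-seq of mouse colon, labelled as tumor cells of wild type genotype. The comparison uses 5 libraries labelled with a serine-free version of the diet abbreviated CD (SF_CD) and 5 labelled with a serine-free high fat diet (SF_HFD). Both groups thus share the removal of serine, and the labels give no age, strain or tumour model. The extraction protocol speaks of organoids while the series' design text speaks of sorted living cells, so which of these the RNA came from is not settled. Whether the 5 libraries of a group stem from different animals is not labelled, so each p-value reflects library-to-library spread alone and that spread could be technical. In the other 8 libraries, on the CD and HFD diets with serine, the row names were found not to name the genes counted (26 of the 39 genes are listed at 0 in all 8), and they are not analysed here.

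Library totals ranged from 499774 to 12841275 counts. SF_CD libraries 1 and 5 and SF_HFD library 5 held under 1000000 counts, at 499774, 523601 and 727610. In SF_CD libraries 1 and 5 ribosomal RNA took 22.0% and 14.5% of the counts, against 2.08% to 7.19% in the other 8 libraries. Malat1, a nuclear noncoding RNA, took 12.1% of the counts of SF_CD library 1. Of 10 epithelial markers, 9 or 10 were detected in every library, with a summed level of 2117 to 4841 CPM (counts scaled to a library of 1000000, TMM-normalised) in SF_CD and 4383 to 6954 CPM in SF_HFD. These ranges overlapped, and 0 of 9 epithelial markers tested passed in edgeR's test. Among the sums for other cell types, that of smooth muscle and pericyte markers did not overlap between the diet groups, and the rest did. The summed level of 8 smooth muscle and pericyte markers was 3.08 to 24.4 CPM in SF_CD and 168.3 to 257.7 CPM in SF_HFD (3 of 6 tested rose in edgeR's test), and that of 8 fibroblast markers 12.1 to 93.5 and 69.7 to 136.4 CPM (1 of 6 rose, Postn). That of 5 endothelial markers was 3.86 to 33.8 CPM in SF_CD and 1.26 to 4.30 CPM in SF_HFD (0 of 1 tested passed), and Cdh5 and Kdr were at 0 in most libraries. That of 7 immune markers was 33.2 to 112.9 and 7.37 to 41.7 CPM (1 of 3 fell, Fcer1g), with overlap, and Cd3e was at 0 throughout. In such bulk RNA, fewer cells of a type and less RNA per cell cannot be told apart, and the part of these markers in the results below was not tested.

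Of the 39 genes, 37 had counts in all 10 libraries. The exceptions were Pdk3, a pyruvate dehydrogenase kinase listed at 0 in SF_CD library 1, and Eno2, the neuronal enolase, which had 0 counts over the SF_CD libraries and 8 over the SF_HFD libraries. Eno2 was the single member too low to be tested, so 38 of the 11780 genes tested were members. To compare genes with each other, counts were also divided by transcript length and scaled to a sum of 1000000 per library (TPM). On that scale 6 members averaged over 1000 TPM across the 10 libraries, all of them glycolytic enzymes: Ldha at 5960 TPM, Gapdh at 3783, Aldoa at 3272, Pgk1 at 2456, Tpi1 at 1388 and Pkm at 1186. This count takes each gene's own row: Eno1 stood at 336.0 TPM there, but a near-identical gene held 352.9% of its counts, as described below, and with its copies Eno1 had CPM near those of Pkm. Neighbours in that order overlapped across libraries, since Ldha ran from 2689 to 7890 TPM, Gapdh from 2175 to 5641 and Aldoa from 1838 to 5186. The most abundant members outside glycolysis were Bnip3 at 669.6 TPM and Higd1a at 528.1 TPM, both genes of mitochondrial proteins. At the low end 7 members averaged under 10 TPM, among them Pfkm, the muscle phosphofructokinase, at 2.47, Pdk2 at 2.57 and Car9, a carbonic anhydrase often used as a hypoxia marker, at 9.93.

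Most of these genes carry the core letters of the HIF binding motif near their start. Windows of 300 bases, 250 before and 50 after each annotated start, were available from RefSeq (GRCm38.p6) for 37 of the 39 members, Bnip3l and Ndrg1 being the others. The letters ACGTG or GCGTG were searched on both strands, so that they read CACGT or CACGC when they lie on the opposite strand, and CACGTG counts on both. At least 1 match was found in 34 of the 37 members (91.9%), against 46.7% of all 27025 genes with a window, and in 76.8% of the 56 windows of members against 43.8% of all 32851 windows. Both motifs contain CG, and the windows of members were richer in it, with a median of 62.7% GC and 21 CG pairs against 52.7% GC and 7 CG pairs over all windows. In addition, 13 members had more than 1 window. The part of base composition in the excess was not tested, and a match describes letters only. Windows of Ldha, Pgk1, Bnip3 and Ldhb are shown as examples. Pgk1 and Bnip3 ranked the libraries much as Ldha did (Spearman correlations of 0.93 and 0.79). Ldhb, the other lactate dehydrogenase gene, did not (-0.16). Any link between matches and these orders was not tested. Ldha has a further window, at chr7:46846832-46847131 with 2 matches, which is not shown. Each window shown is written 5′ to 3′ along its gene's strand with the matches in capitals. They lie at chr7:46845554-46845853 (plus strand, 7 matches), chrX:106186850-106187149 (plus strand, 2 matches), chr7:138909457-138909756 (minus strand, 5 matches) and chr6:142507908-142508207 (minus strand, 1 match).
Ldha: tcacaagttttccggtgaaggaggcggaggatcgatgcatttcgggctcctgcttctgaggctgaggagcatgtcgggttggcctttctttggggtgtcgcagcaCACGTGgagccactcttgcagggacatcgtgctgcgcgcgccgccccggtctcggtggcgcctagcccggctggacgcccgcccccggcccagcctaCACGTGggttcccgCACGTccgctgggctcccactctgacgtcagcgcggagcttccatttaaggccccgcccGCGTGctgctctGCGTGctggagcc
Pgk1: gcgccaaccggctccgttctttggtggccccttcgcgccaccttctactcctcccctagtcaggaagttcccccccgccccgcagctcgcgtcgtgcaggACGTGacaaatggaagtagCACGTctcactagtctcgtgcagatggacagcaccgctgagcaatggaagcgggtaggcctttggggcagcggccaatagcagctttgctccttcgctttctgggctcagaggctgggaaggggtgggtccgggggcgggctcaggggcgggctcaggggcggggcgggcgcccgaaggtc
Bnip3: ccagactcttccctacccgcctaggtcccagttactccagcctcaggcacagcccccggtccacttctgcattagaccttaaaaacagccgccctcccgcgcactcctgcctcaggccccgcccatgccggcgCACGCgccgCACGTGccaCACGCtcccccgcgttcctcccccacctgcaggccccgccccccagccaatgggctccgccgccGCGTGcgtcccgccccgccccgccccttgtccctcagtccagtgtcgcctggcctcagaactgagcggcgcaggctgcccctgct
Ldhb: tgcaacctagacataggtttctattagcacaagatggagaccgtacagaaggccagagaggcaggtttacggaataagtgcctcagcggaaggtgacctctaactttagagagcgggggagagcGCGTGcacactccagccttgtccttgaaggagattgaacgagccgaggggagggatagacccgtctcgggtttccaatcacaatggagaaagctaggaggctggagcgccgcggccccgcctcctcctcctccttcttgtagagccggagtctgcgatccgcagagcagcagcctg

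The question the comparison answers is whether these genes differ between the high fat and the CD diet when both lack serine. No member passed the test: 0 of 38 had an adjusted p under 0.05 in edgeR's quasi-likelihood test, where 38 of all 11780 genes did (0.323%). At an unadjusted p under 0.05, edgeR gave 6 of 38 members (15.8%), against 11.6% of all genes. The 4 higher in SF_HFD were Slc16a1, Slc16a3, Hif1a and Egln3, and the 2 lower were Ldhb and Bnip3l. Their log2 fold changes, always SF_HFD minus SF_CD, had a median of 0.11, beside 0.02 for all genes tested, and 20 of 38 were positive (52.6%), beside 51.4% of all genes. DESeq2 called 1 member, Ldhb, where it called 2.74% of the 13691 genes to which it gave an adjusted p. By role, all 3 transporters and all 3 oxygen-sensing genes had positive log2 fold changes, with and without the 3 libraries under 1000000 counts. Of the 12 other hypoxia targets 9 had negative ones, which became 6 of 12 without those libraries. A p above the threshold does not show that a gene's levels were equal.

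**Figure D1:**
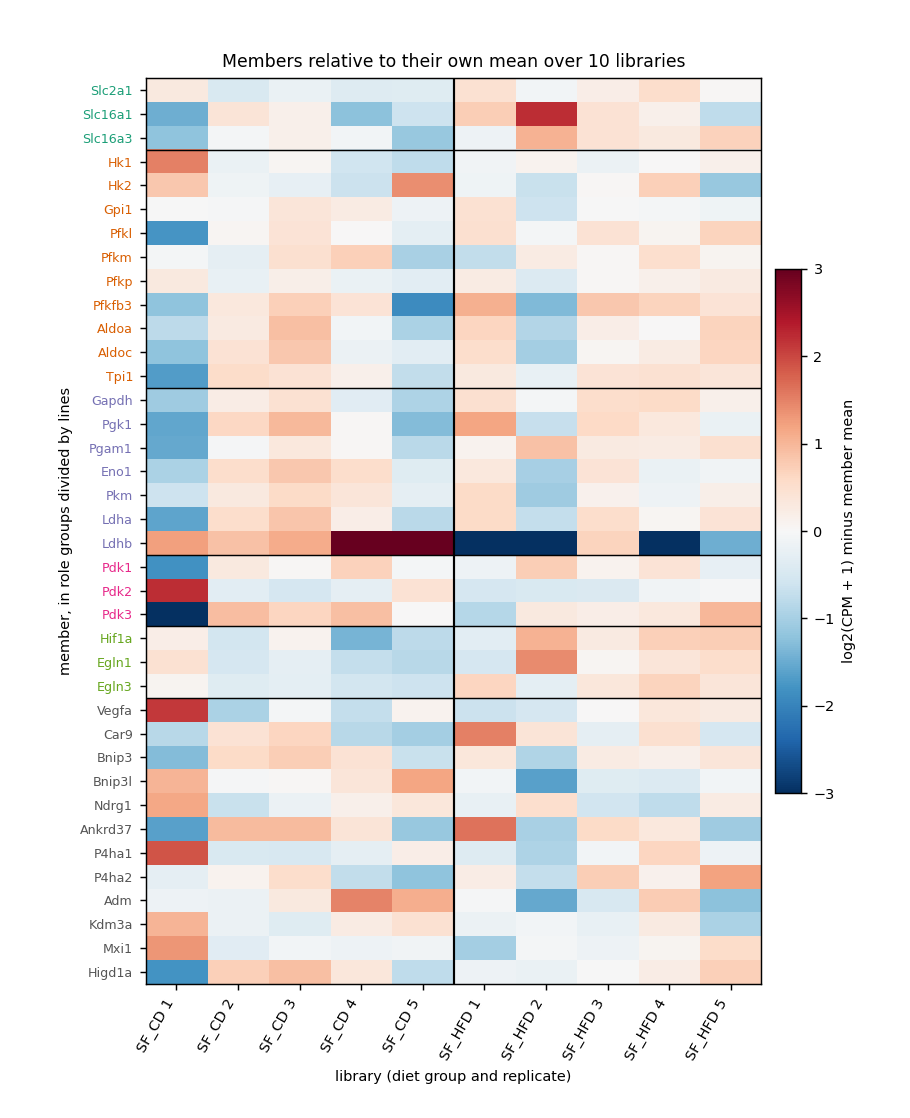
Heat map of the 38 tested members (rows, in role groups divided by lines) in the 10 libraries (columns, SF_CD left and SF_HFD right of the vertical line). Colour is log2(CPM + 1) minus the member's mean over the libraries, with the scale ending at 3 in both directions. Ldhb passes that end, and so does Pdk3 in SF_CD library 1, where it has 0 counts. Ldhb separates the groups, and SF_CD libraries 1 and 5 are low in most glycolytic enzymes.

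Among the transporters, Slc16a1 encodes the lactate carrier MCT1. It stood at 15.8, 60.05, 50.9, 18.7 and 29.2 CPM in SF_CD libraries 1 to 5 and at 76.3, 214.8, 62.1, 50.9 and 26.5 CPM in SF_HFD libraries 1 to 5. SF_HFD library 2 lay far above the rest and the groups overlapped. Its log2 fold change of 1.27 ± 0.53 (standard error) did not pass (edgeR adjusted p = 0.362), and without SF_HFD library 2 the SF_HFD mean fell from 86.1 to 53.9 CPM, against 34.9 CPM in SF_CD. Slc16a3 encodes MCT4, which exports lactate from glycolytic cells. It stood at 40.6, 91.1, 105.5, 90.1 and 42.8 CPM in SF_CD and at 85.98, 196.1, 129.5, 117.0 and 155.4 CPM in SF_HFD. SF_CD libraries 1 and 5 were the lowest of the 10, and the difference was 0.86 ± 0.37 on the log2 scale (edgeR adjusted p = 0.371). Slc2a1, the glucose transporter GLUT1, stood at 119.5, 71.0, 85.6, 74.3 and 75.9 CPM in SF_CD and at 134.6, 91.9, 113.5, 141.3 and 99.8 CPM in SF_HFD. Here 4 of the 5 SF_CD libraries were below every SF_HFD library, with SF_CD library 1 the exception (log2 fold change 0.46 ± 0.31, edgeR adjusted p = 0.590).

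In the preparatory phase, in which glucose is phosphorylated and split, the 10 log2 fold changes ran from -0.52 (Hk2) to 0.49 (Pfkl) and the smallest edgeR adjusted p was 0.651. Aldoa, the main aldolase, stood at 2022, 4152, 6469, 3305 and 1795 CPM in SF_CD and at 5412, 1887, 3994, 3492 and 5531 CPM in SF_HFD. Tpi1, the triose phosphate isomerase, stood at 475.6, 2238, 2077, 1689 and 921.0 CPM in SF_CD and at 1878, 1320, 2025, 2086 and 1969 CPM in SF_HFD. Both genes overlapped between groups, and for both the low SF_CD values came from libraries 1 and 5. Hexokinase 2, which traps glucose as glucose 6-phosphate, showed the opposite layout in SF_CD: Hk2 stood at 374.2 and 564.7 CPM in SF_CD libraries 1 and 5 and at 135.9 to 196.2 CPM in the other 3, with 97.3 to 353.1 CPM in SF_HFD. Hk1, the housekeeping hexokinase, reached 117.2 CPM in SF_CD library 1 and lay between 23.4 and 45.5 CPM in the other 9 libraries. Of the phosphofructokinases, Pfkp averaged 171.3 ± 32.4 CPM in SF_CD and 185.7 ± 32.9 in SF_HFD (SD, n = 5), Pfkl 91.6 ± 39.5 and 130.4 ± 26.4, and Pfkm 5.11 ± 2.56 and 5.05 ± 1.70. Pfkfb3, whose product activates phosphofructokinase, was lowest in SF_CD libraries 1 and 5, at 6.76 and 3.89 CPM, and in SF_HFD library 2, at 6.22 CPM, with 21.5 to 36.8 CPM in the other 7. Gpi1, the glucose 6-phosphate isomerase, was among the steadiest members, with means of 544.0 ± 82.2 CPM in SF_CD and 500.8 ± 132.1 CPM in SF_HFD.

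In the payoff phase, which yields ATP and pyruvate, Gapdh stood at 1761, 4361, 5064, 2922 and 1947 CPM in SF_CD and at 5148, 3556, 5314, 5552 and 4153 CPM in SF_HFD. The 3 lowest values were all in SF_CD and the groups overlapped, with a difference of 0.56 ± 0.34 on the log2 scale (edgeR adjusted p = 0.537). Near-identical Gapdh copies elsewhere in the genome held counts equal to 5.55% of those of Gapdh, and adding them gave 0.59. Pgam1, a phosphoglycerate mutase, averaged 229.1 ± 100.7 CPM in SF_CD and 370.2 ± 83.6 CPM in SF_HFD (SD, n = 5), a difference of 0.68 ± 0.36 on the log2 scale (edgeR adjusted p = 0.472). Pgk1, phosphoglycerate kinase, averaged 3103 ± 2088 and 3830 ± 1872 CPM, and Pkm, pyruvate kinase, 2225 ± 696.4 and 2067 ± 755.8 CPM. Neither approached the threshold, with edgeR adjusted p of 0.859 and 0.941. Eno1, the general enolase, is uncertain, because a near-identical gene, Eno1b, with which it shares 87.9% of 31-base words, held 352.9% of the counts of Eno1. Taken with its copies, Eno1 averaged 2657 ± 1170 CPM in SF_CD and 2038 ± 634.2 CPM in SF_HFD (log2 fold change -0.38, edgeR adjusted p = 0.738).

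The largest difference among the 38 tested members was in lactate dehydrogenase. The enzyme is a tetramer of A subunits, from Ldha, which favours making lactate, and B subunits, from Ldhb, which favours using it. Ldhb lies at chr6:142490249-142507957 on the minus strand. It stood at 63.1, 48.9, 57.9, 788.0 and 262.9 CPM in SF_CD libraries 1 to 5 and at 1.45, 1.38, 42.5, 1.28 and 8.84 CPM in SF_HFD libraries 1 to 5. Every SF_HFD library was below every SF_CD library, which held for 2 of 38 members (5.26%) and for 1.42% of all genes tested, while the reverse order held for 0 members and 2.23% of all genes. The summed counts were 11403 over SF_CD and 505 over SF_HFD. The log2 fold change was -4.44 ± 1.14 and did not pass (adjusted p = 0.138 in edgeR's quasi-likelihood test).

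The spread within each group sets how firmly that can be read. SF_CD library 4 alone raised the SF_CD mean from 108.2 to 244.1 CPM, and SF_HFD library 3 alone raised the SF_HFD mean from 3.24 to 11.1 CPM. DESeq2 gave Ldhb an adjusted p of 0.00926, and edgeR without SF_HFD library 3 gave 0.0228, when 0.253% of 11879 genes were called. The fold change was negative under all 20 alternative settings, from -6.79 to -3.24, with adjusted p between 0.00926 and 0.268. Without the 3 libraries under 1000000 counts it was -4.65.

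Ldha lies at chr7:46841475-46855627 on the plus strand. It stood at 2441, 10580, 13040, 8407 and 4219 CPM in SF_CD and at 10890, 4498, 10700, 7691 and 9779 CPM in SF_HFD. The groups overlapped throughout, with a difference of 0.17 ± 0.41 on the log2 scale (edgeR adjusted p = 0.918). Ldha thus made up most lactate dehydrogenase counts in every library. Its share was 97.5%, 99.54%, 99.56%, 91.4% and 94.1% in SF_CD, and 99.99%, 99.97%, 99.60%, 99.98% and 99.91% in SF_HFD. The mean share was 96.4 ± 3.56% in SF_CD and 99.9 ± 0.16% in SF_HFD (SD, n = 5). The groups did not overlap, but the margin between 99.56% and 99.60% was narrow. The share draws on the same Ldhb counts and is not a separate result. The 2-sided exact permutation test over all ways to split the libraries 5 against 5 gave p = 0.00794, the smallest it allows, which became 0.0873 after Benjamini-Hochberg adjustment over 11 isoenzyme shares.

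**Figure D2:**
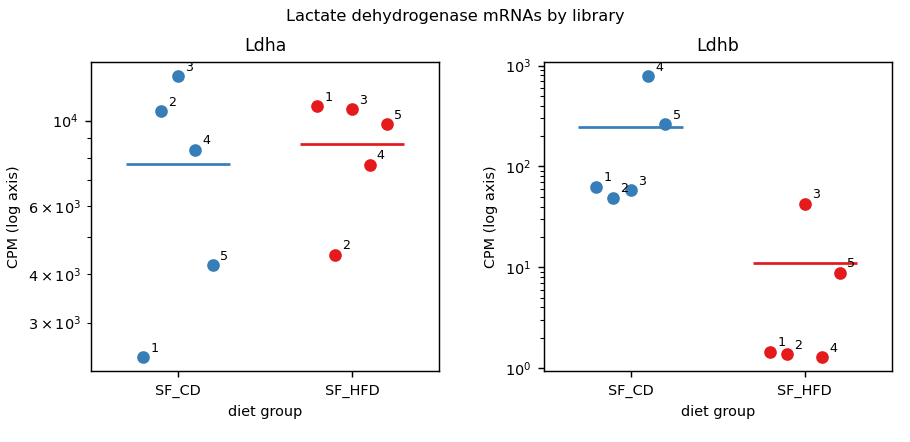
Levels of Ldha (left) and Ldhb (right) in CPM on log axes, each point a library with its replicate number and each line the mean of the 5 libraries of a diet group. The Ldhb points of SF_CD run from 48.9 to 788.0 CPM and those of SF_HFD from 1.28 to 42.5 CPM, without overlap, while the Ldha points overlap.

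The other 10 shares between related genes overlapped between groups, and their adjusted exact permutation p ran from 0.422 upward. The most uneven was Bnip3 within Bnip3 plus Bnip3l, at 21.5%, 67.9%, 69.2%, 59.2% and 27.8% in SF_CD and 65.2% to 69.7% in SF_HFD. SF_CD libraries 1 and 5 were the low ones, and leaving out the 3 libraries under 1000000 counts reduced the difference between groups from 18.0 to 2.06 percentage points. Pfkp made up 86.4% of phosphofructokinase counts in SF_CD library 1 and 55.6% to 62.8% in the other 9. Hk2 made up 68.1% to 96.0% of the counts of both hexokinases.

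The pyruvate dehydrogenase kinases hold back the use of pyruvate in the mitochondria by inhibiting pyruvate dehydrogenase. Pdk1, a HIF target, stood at 11.3, 52.1, 43.6, 69.0 and 40.9 CPM in SF_CD and at 38.0, 71.0, 45.6, 56.6 and 35.4 CPM in SF_HFD. The Pdk1 groups overlapped, with SF_CD library 1, from 5 counts, the lowest. Pdk3 stood at 0, 19.1, 15.6, 18.8 and 9.74 CPM in SF_CD and at 4.89, 12.0, 11.1, 12.2 and 20.2 CPM in SF_HFD. Pdk2 stood at 15.8, 1.87, 1.54, 1.97 and 3.89 CPM in SF_CD and at 1.54, 1.61, 1.67, 2.34 and 2.53 CPM in SF_HFD. The Pdk2 difference rested on SF_CD library 1, which has few counts: the SF_CD mean was 5.01 CPM with it and 2.32 CPM without it, against 1.94 CPM in SF_HFD. None of the 3 kinases passed, the smallest edgeR adjusted p being 0.655.

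Oxygen is sensed by prolyl hydroxylases, among them Egln1 and Egln3, which mark the HIF alpha subunit for destruction. Hif1a mRNA stood at 47.3, 27.3, 43.7, 14.8 and 23.4 CPM in SF_CD and at 32.4, 85.0, 49.6, 67.3 and 68.2 CPM in SF_HFD. In 4 of 5 SF_HFD libraries it was above every SF_CD library, library 1 being the exception, and the log2 fold change was 0.97 ± 0.40 (edgeR adjusted p = 0.356). Egln3, itself a HIF target, stood at 76.6, 56.0, 59.1, 48.8 and 46.7 CPM in SF_CD and at 113.8, 58.8, 91.9, 114.4 and 93.5 CPM in SF_HFD. Egln1, the main hydroxylase, stood at 58.6, 30.0, 35.3, 25.8 and 23.4 CPM in SF_CD and at 29.9, 115.9, 44.1, 55.0 and 61.9 CPM in SF_HFD. For both, the groups overlapped, with SF_HFD library 2 low for Egln3 and SF_HFD library 1 low for Egln1. SF_CD library 1, the shallowest, was the highest of SF_CD for both. The SF_HFD group was higher on the log2 scale by 0.73 ± 0.32 for Egln3 and 0.85 ± 0.41 for Egln1 (edgeR adjusted p = 0.386 and 0.437). These 3 genes kept positive fold changes under all 20 alternative settings, from 0.76 to 1.16 for Hif1a, 0.47 to 1.08 for Egln1 and 0.64 to 0.85 for Egln3, and passed under none.

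Among the other hypoxia targets, Bnip3l and Bnip3 encode related receptors for the removal of mitochondria by autophagy. Bnip3l stood at 1192, 574.6, 601.8, 757.1 and 1330 CPM in SF_CD and at 550.0, 189.9, 458.9, 438.6 and 549.5 CPM in SF_HFD. It was the other member whose groups did not overlap, with SF_HFD lower, but the margin between 574.6 and 550.0 CPM was narrow and the log2 fold change of -1.03 ± 0.36 did not pass (edgeR adjusted p = 0.289). Without the 3 libraries under 1000000 counts it was -0.65. Bnip3 stood at 326.9, 1214, 1352, 1097 and 512.1 CPM in SF_CD and at 1031, 436.5, 961.7, 901.9 and 1048 CPM in SF_HFD, a log2 fold change of -0.04 ± 0.39. Higd1a, a mitochondrial protein gene, stood at 227.7, 1301, 1478, 1003 and 461.5 CPM in SF_CD and at 711.4, 688.3, 787.0, 919.4 and 1287 CPM in SF_HFD. Bnip3 and Higd1a were again lowest in SF_CD libraries 1 and 5, apart from SF_HFD library 2 for Bnip3, whereas Bnip3l was highest there. Adm encodes the peptide adrenomedullin. It stood at 22.5, 22.4, 31.2, 71.9 and 54.5 CPM in SF_CD and at 24.4, 8.07, 17.7, 43.5 and 10.1 CPM in SF_HFD. The groups overlapped, with a difference of -0.94 ± 0.49 on the log2 scale (edgeR adjusted p = 0.473).

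The angiogenic factor gene Vegfa reached 178.1 CPM in SF_CD library 1 and lay between 20.3 and 50.6 CPM in the other 9 libraries. P4ha1, a collagen prolyl hydroxylase subunit, reached 225.4 CPM in the same library and lay between 31.6 and 95.2 CPM in the others. Without that library the SF_CD means fell from 60.7 to 31.4 CPM for Vegfa and from 86.6 to 51.9 CPM for P4ha1, against 38.4 and 56.9 CPM in SF_HFD. P4ha2, its relative, averaged 60.1 ± 27.8 CPM in SF_CD and 93.9 ± 44.8 CPM in SF_HFD (SD, n = 5). The remaining targets also overlapped: Car9 averaged 11.6 ± 7.06 and 18.8 ± 12.0 CPM, Ankrd37 52.1 ± 34.5 and 59.96 ± 47.6 CPM, Ndrg1 103.9 ± 52.0 and 79.6 ± 29.9 CPM, Kdm3a 40.99 ± 16.8 and 28.6 ± 8.21 CPM, and Mxi1 33.4 ± 20.5 and 26.5 ± 9.84 CPM. Kdm3a encodes a histone demethylase and Mxi1 an antagonist of Myc.

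**Figure D3:**
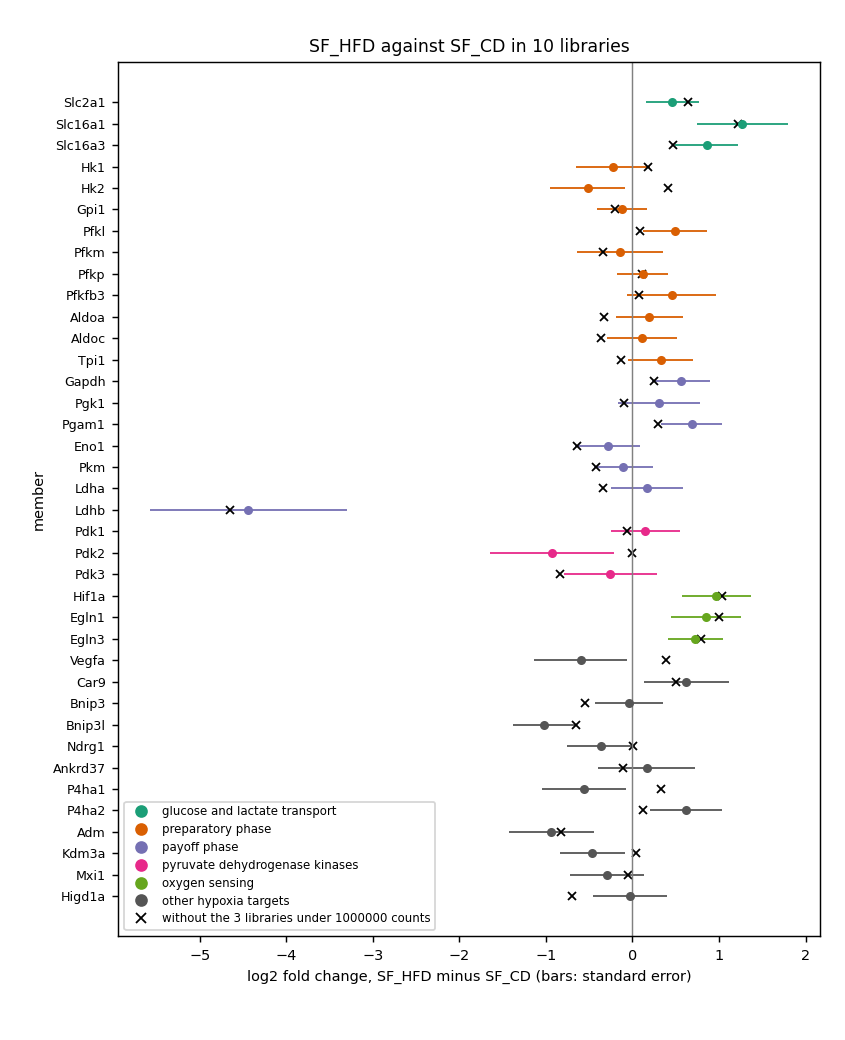
Log2 fold change of each tested member, SF_HFD minus SF_CD over 10 libraries (dots coloured by role, bars the standard error), and the same without the 3 libraries under 1000000 counts (crosses). Ldhb lies at -4.44 and the others between -1.03 and 1.27, and 13 crosses lie on the other side of 0 from their dots.

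Within SF_CD, libraries 1 and 5, those with the high ribosomal RNA share, stood apart from libraries 2, 3 and 4 for many members but not all. Members took 1.22% and 1.66% of all counts in libraries 1 and 5, against 2.15% to 3.79% in the other 8 libraries. Libraries 1 and 5 were both below libraries 2, 3 and 4 for 18 of 38 members (47.4%) and both above for 7 (18.4%), beside 34.4% and 18.8% of all genes tested. The low ones included 6 of 7 payoff enzymes, all but Ldhb: Ldha averaged 3330 CPM in libraries 1 and 5 against 10680 in the other 3, and Pgk1 1089 against 4446. The high ones were Hk2, Pdk2, Vegfa, Bnip3l, Ndrg1, P4ha1 and Kdm3a, a share close to that of all genes tested. The remaining members fell in neither class. Some placements rest on few counts in libraries 1 and 5: 7 and 2 for Pdk2, among the high ones. Among the low ones these were 3 and 2 for Pfkfb3, 3 and 3 for Car9, and 0 and 5 for Pdk3. Ankrd37, a HIF target with a transcript of 927 bases, averaged 16.5 CPM against 75.8, and P4ha1, with 4043 bases, 147.8 against 45.8. The log2 difference between those libraries followed transcript length, with a Spearman correlation of 0.46 across the 38 members and 0.43 across all genes with a length, which share libraries and depth. Long members that went the other way included Pdk1 (5185 bases, a log2 difference of -1.31), Pfkfb3 (4801 bases, -2.17) and Slc16a1 (4426 bases, -0.835). Slc16a3 (4335 bases, -1.19) and Pfkl (3730 bases, -1.20) did so too. Pdk2, with a shorter transcript of 2246 bases, lay at 1.98. The part of RNA quality in this layout was not tested.

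**Figure D4:**
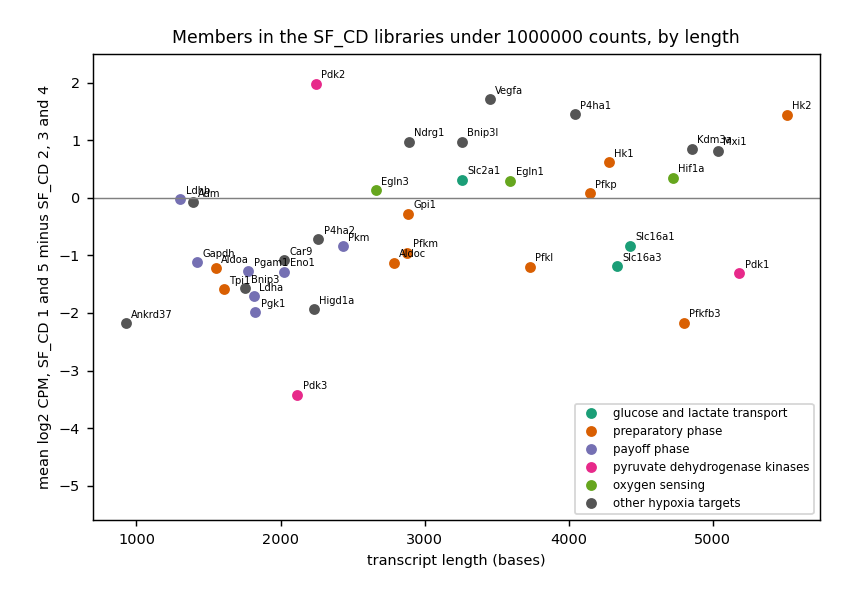
Mean log2 CPM in SF_CD libraries 1 and 5 minus that in SF_CD libraries 2, 3 and 4 (vertical axis) against transcript length in bases (horizontal axis), a point per tested member coloured by role. Payoff enzymes with transcripts near 1420 to 2432 bases lie at or below -0.84, except Ldhb, and longer members lie on both sides of 0, Hk2, Vegfa and P4ha1 above it and Pdk1, Pfkfb3, Slc16a3 and Pfkl below -1.1.

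The fold changes of abundant members depended on those libraries. Without the 3 libraries under 1000000 counts, 13 of the 38 log2 fold changes changed sign, among them Ldha from 0.17 to -0.34, Aldoa from 0.20 to -0.33 and Vegfa from -0.60 to 0.39. Some kept their sign but shrank: Slc16a3 from 0.86 to 0.465, Gapdh from 0.56 to 0.25 and Pgam1 from 0.68 to 0.30. Others kept it and grew, such as Slc2a1 from 0.46 to 0.65 and Hif1a from 0.97 to 1.03. No member was called by edgeR in that fit either. The median over members became 0.00.

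Across the 10 libraries the members did not move as a single block. The median Spearman correlation between pairs of members was 0.09, beside 0.02 between all genes tested. It was 0.41 among the 7 payoff enzymes, 0.22 in the preparatory phase, 0.59 among the 3 oxygen-sensing genes and -0.01 among the 12 other hypoxia targets. The members closest to Ldha by rank were Pgk1 at 0.93, Aldoa and Ankrd37 at 0.87, and Aldoc and Pkm at 0.84, and Bnip3 stood at 0.79. Those that ran most against Ldha were Kdm3a at -0.81, Pdk2 at -0.77 and Ndrg1 at -0.60. In the 7 libraries of at least 1000000 counts the payoff median was 0.25 and that of the oxygen-sensing genes 0.54. These are descriptions over libraries that share differences in depth and RNA content.

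A further 97 genes of the same pathways, outside the 39, gave 77 tested genes, of which 1 passed edgeR's test, beside the 0.323% called over all genes. None of the other 76 passed in edgeR. Ak4, a mitochondrial adenylate kinase and HIF target, stood at 15.8, 25.2, 22.6, 26.9 and 17.5 CPM in SF_CD and at 70.3, 36.9, 41.1, 58.6 and 45.5 CPM in SF_HFD. Its groups did not overlap, and the log2 fold change of 1.19 ± 0.34 passed in DESeq2 (adjusted p = 0.0165) and not in edgeR (adjusted p = 0.174).

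Of the further glycolysis and pentose phosphate genes, the smallest p belonged to Slc2a3, the glucose transporter GLUT3, and Ldhd, the mitochondrial D-lactate dehydrogenase. Slc2a3 stood at 99.2, 114.2, 129.0, 135.5 and 126.6 CPM in SF_CD and at 91.9, 77.9, 63.0, 41.1 and 89.7 CPM in SF_HFD. The groups did not overlap, with a difference of -0.74 ± 0.32 on the log2 scale (edgeR adjusted p = 0.375), so GLUT3 lay lower in SF_HFD where GLUT1 lay higher on the mean, and neither passed. Ldhd stood at 2.25, 0.77, 0.56, 0.99 and 0 CPM in SF_CD and at 1.18, 2.54, 3.52, 1.74 and 2.53 CPM in SF_HFD, from 25 counts in SF_CD and 87 in SF_HFD. The difference was 1.46 ± 0.63 on the log2 scale with overlap (edgeR adjusted p = 0.382).

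Further genes act on the entry of pyruvate into the mitochondria or on its use there. Of these, Pdp2 encodes a pyruvate dehydrogenase phosphatase. It stood at 81.2, 28.6, 27.5, 28.8 and 120.7 CPM in SF_CD and at 23.3, 31.8, 13.7, 18.0 and 29.1 CPM in SF_HFD. SF_CD libraries 1 and 5 were the highest of the 10, and the difference was -1.26 ± 0.47 on the log2 scale (edgeR adjusted p = 0.315). Pcx, pyruvate carboxylase, stood at 4.51, 5.95, 4.90, 3.04 and 1.95 CPM in SF_CD and at 15.3, 6.22, 7.77, 12.2 and 5.05 CPM in SF_HFD. The groups overlapped at SF_CD library 2 and SF_HFD library 5 (difference 1.16 ± 0.48 on the log2 scale, edgeR adjusted p = 0.359). Of the HIF control genes, Egln2, the remaining prolyl hydroxylase of the family, stood at 15.8, 14.1, 10.9, 14.9 and 13.6 CPM in SF_CD and at 21.1, 40.3, 18.1, 23.0 and 13.9 CPM in SF_HFD. Its difference was 0.78 ± 0.38 on the log2 scale (edgeR adjusted p = 0.441), with SF_HFD library 5 inside the range of SF_CD. Vhl, which recognises the marked HIF subunit, stood at 6.76, 9.59, 5.88, 9.79 and 7.79 CPM in SF_CD and at 9.68, 13.1, 13.9, 21.8 and 5.05 CPM in SF_HFD. Its groups overlapped (difference 0.69 ± 0.43 on the log2 scale, edgeR adjusted p = 0.560).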

How the data were processed

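Poly(A)-selected, strand-specific libraries were made from mouse colon tumor RNA, per the labels' protocols. For 18 libraries the authors deposited estimated counts as whole numbers. Per the submitters' processing notes, Salmon 1.3.0 and mm10 were used. The annotation release is not given in the sources used here. Ambiguous reads are shared out by estimate, which leaves near-identical copies uncertain. Columns were matched to samples by library name. Only the 10 serine-free libraries were used, and the 8 columns of the other diets were not analysed, because their row names were found not to name the genes counted.

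The test was edgeR 4.0.16 in R 4.3.3 (quasi-likelihood, robust, TMM, filterByExpr) over all genes of the 10 libraries, with Benjamini-Hochberg adjustment at 0.05. Standard errors came from the fold change and the F statistic. The script was tested on simulated data. Alternatives were DESeq2 1.42.0, limma-voom 3.58.1, RLE and upper quartile scaling, no filter, a stricter filter (5 CPM in 5 libraries), the replicate block, each library left out, libraries under 1000000 counts left out, ribosomal RNA and Malat1 removed, copies summed, and a minimum of 2-fold. Shares were tested by exact permutation where each library had 20 summed counts, which left out Pdk1. Lengths, gene coordinates (mm10) and copies (at least 50% of 31-base words shared) came from GENCODE M21, which matched 94.7% of rows. A count of 3 equals 6.73 CPM in the shallowest library and 0.227 CPM in the library with the most counts, and these limits cover counting error only.

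The members and lists were chosen with earlier results of these data known. Values by library are given for the 2 members of each role with the highest mean CPM, the 6 with the largest fold change and the 6 with the smallest p, and for the 2 genes of each further list with the smallest p, apart from an item that is not reported here.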

Additional observations from a re-analysis of the deposited data

Results flagged for a closer look

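In 14 of 98 groups of 5 libraries examined, the highest or lowest library stood apart from the other 4 by Dixon's criterion at 95%. Chance alone meets it in about 1 in 20 groups of normally distributed values, which CPM and shares need not be. The groups also depend on each other, as the shares of Pfkl and Pfkp are parts of the same sum. Of the 14, 7 were SF_CD library 1, with 499774 counts, and 3 were SF_HFD library 2.

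SF_CD library 1 was the highest of its group for Hk1 (117.2 CPM, others up to 42.2), Pdk2 (15.8 CPM, others up to 3.89), Vegfa (178.1 CPM, others up to 42.8), P4ha1 (225.4 CPM, others up to 70.1) and Mxi1 (69.9 CPM, others up to 25.6). In the same library the share of Pfkl among phosphofructokinase counts was 11.8%, with the others at 36.8% or more, and that of Pfkp 86.4%, with the others at 62.4% or less.

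SF_HFD library 2 was the highest of its group for Slc16a1 (214.8 CPM, others up to 76.3) and the lowest for Tpi1 (1320 CPM, others from 1878) and Bnip3 (436.5 CPM, others from 901.9). Ldhb stood apart in both groups, at 788.0 CPM in SF_CD library 4 (others up to 262.9) and at 42.5 CPM in SF_HFD library 3 (others up to 8.84). The share of Ldha in SF_HFD library 3 was 99.6%, with the others at 99.91% or more. Aldoc, the brain aldolase, made up 5.27% of aldolase counts in SF_HFD library 4, with the others at 4.39% or less.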

How the results depend on the processing

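The count of genes called over the whole table was 38 and became 78 with no filter, 21 with the stricter filter, 375 with DESeq2, 168 with limma-voom and quality weights, and 16 to 88 when a library was left out. Members called were 0 and became 1 (Ldhb) with DESeq2, and 0 to 1 when a library was left out, the 1 being Ldhb without SF_HFD library 3. Other pathway genes called became 2 with DESeq2. Of the 38 fold changes of members, 20 kept their sign in all settings and 18 did not. RLE and upper quartile scaling turned none. No share passed its threshold in any setting. Depth limits single values in the shallow libraries. SF_CD library 1 held 0 counts of Pdk3, 2 of Pfkm, and 3 each of Pfkfb3 and Car9. It held 5 of Pdk1, 6 of Ankrd37, and 7 each of Slc16a1 and Pdk2, and 3 counts there equal 6.73 CPM. The cause of the changes below was not tested.

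Without the 3 libraries under 1000000 counts the log2 fold changes that turned were 0.18 for Hk1, 0.41 for Hk2, -0.327 for Aldoa, -0.36 for Aldoc, -0.13 for Tpi1, -0.10 for Pgk1, -0.34 for Ldha, -0.059 for Pdk1, 0.39 for Vegfa, 0.003 for Ndrg1, -0.11 for Ankrd37, 0.33 for P4ha1 and 0.036 for Kdm3a. The differences in share that turned were 0.67 percentage points for Hk2, 0.44 for Pfkp and -1.505 for P4ha2. With limma-voom the log2 fold changes that turned were 0.10 for Hk1, 0.12 for Hk2, -0.071 for Aldoa, -0.20 for Aldoc, -0.031 for Ldha, -0.042 for Pdk1, 0.49 for Vegfa, -0.28 for Ankrd37, 0.36 for P4ha1 and 0.016 for Mxi1.

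With each library left out in turn, the log2 fold changes that turned ran from -0.42 to 0.32 for Hk1, -0.31 to 0.10 for Pfkm, -0.081 to 0.39 for Aldoc, -0.28 to 0.074 for Pkm, -0.057 to 0.445 for Ldha, -0.063 to 0.367 for Pdk1, -0.84 to 0.32 for Vegfa, -0.26 to 0.15 for Bnip3, -0.39 to 0.40 for Ankrd37, -0.86 to 0.16 for P4ha1, -0.48 to 0.11 for Mxi1 and -0.28 to 0.23 for Higd1a. The shares that turned ran from -0.47 to 0.11 percentage points for Pfkm, -0.68 to 0.18 for Aldoc, -8.91 to 0.52 for Slc16a3 and -6.07 to 5.32 for Egln3.

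Same-numbered libraries of the groups showed little common deviation (correlations -0.07, -0.21, 0.14, -0.001 and -0.03). The labels do not say that a number pairs libraries, and these correlations cannot show that it does not. With the replicate block, 22 genes and 0 members were called, and 3 fold changes turned, to 0.002 for Hk1, 0.078 for Bnip3 and 0.213 for Higd1a.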

Other observations

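Genes whose log2 CPM ran closely like that of Ldhb over the 10 libraries, by Pearson correlation among all genes tested, included Igf1 (0.95), Armh4 (0.94), Cmtm8 (0.93), Nefl (0.93), Adh7 (0.93), Selenop (0.93) and Igfbp5 (0.92). They were listed because of this likeness, so their values are a description. Igf1, a secreted growth factor, stood at 40.6, 11.6, 14.01, 662.0 and 545.2 CPM in SF_CD and at 0.91, 0.92, 8.79, 1.21 and 2.53 CPM in SF_HFD, and Selenop, a secreted selenoprotein, at 110.5, 26.0, 31.4, 772.9 and 200.6 CPM and at 2.90, 5.07, 45.8, 1.89 and 1.26 CPM. As for Ldhb, SF_CD libraries 4 and 5 were the highest of both genes and SF_HFD library 3 was the highest of its group. In edgeR's test Igf1 and Igfbp5 were lower in SF_HFD (both adjusted p = 0.0469), and the other 5 named here did not pass.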
